A study of Rattus norvegicus with 12 samples.

Results

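The calcitonin family of peptides and its receptors were described in the uterus of rats given progesterone or oil. Its members are 8 of the 26312 genes in the tables, chosen by gene name: the peptide genes Calca, Calcb and Adm, the receptor genes Calcr and Calcrl, and the receptor activity-modifying protein genes Ramp1, Ramp2 and Ramp3. All 8 names were found, and 7 of the 8 had enough reads to be tested. Calcr did not. The family was chosen with its response to progesterone, that of Calca above all, already known. Values of the 8 genes under progesterone against oil are therefore given as a description with no test, and tests are kept for the comparisons between strains and for genes outside the family.

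Calca gives rise by alternative splicing to calcitonin, a hormone of the thyroid C cells that lowers blood calcium, or to the calcitonin gene-related peptide (CGRP), a vasodilator of sensory nerves. Calcb encodes a second form of CGRP, and Adm encodes adrenomedullin, a vasodilator made by many tissues. The calcitonin receptor-like receptor, encoded by Calcrl, reaches the cell surface with a partner protein: with RAMP1 it forms the CGRP receptor, and with RAMP2 or RAMP3 it forms adrenomedullin receptors. Calcr encodes the calcitonin receptor, which forms amylin receptors with the same partners. Calcitonin is known in the rat uterus as a progesterone-dependent product of the glandular epithelium around implantation.

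RNA was sequenced from the uterus of ovariectomised rats, 10 weeks old, that had rested for 2 weeks. Holtzman Sprague Dawley (HSD) rats, an outbred stock, and Brown Norway (BN) rats, an inbred strain, were injected under the skin with sesame oil, the vehicle, or with progesterone (P4) in a dose of 40 µg per g, and the uterus was taken 9 h later. The 4 groups, HSD-Oil, HSD-P4, BN-Oil and BN-P4, held 3 libraries each. The labels give each library its own number but do not state which animals were used, so the p-values measure the spread between libraries. Libraries held 11763894 to 19033254 gene reads, and 3 reads, the floor used here, correspond to 0.155 to 0.261 CPM, gene reads scaled to a common depth. No sequencing barcode was shared between groups, and HSD-Oil, HSD-P4 and BN-P4 each had 2 distinct barcodes among their 3 libraries. Barcodes do not name a batch. A batch that follows strain or treatment, if there was one, cannot be told apart from them. The whole uterus was sampled, and fewer cells of a type and less RNA per cell cannot be told apart. Of the marker lists, endothelial genes summed to 411 to 623 CPM over the 12 libraries. Epithelial genes summed to 782 to 1115 CPM in HSD-Oil and 858 to 918 CPM in HSD-P4. In BN they summed to 707 to 731 CPM under oil and 666 to 829 CPM under P4, below HSD without overlap. Of the 6 epithelial markers, 2 were called lower in BN under oil, 1 under P4 and 0 higher. Of all tested genes, 5.69 and 5.73% were called. The part of epithelium in the strain comparisons was not tested. Smooth muscle genes summed to 6938 CPM in HSD-P4 replicate 3, the lowest of the 12 libraries, and to 8304 to 15249 CPM in the others. The 4 lymphatic endothelial genes summed to 102 to 133 CPM in HSD-Oil and 69.6 to 100 CPM in HSD-P4. In BN they summed to 99.0 to 107 CPM under oil and 76.1 to 97.1 CPM under P4. Of them 3 were called lower under P4 in HSD, 0 in BN and 0 higher. Of all tested genes, 18.7% were called lower under P4 in HSD and 11.8% in BN, and 20.3 and 14.0% higher. The part of lymphatic endothelial cells in the values of the family was not tested. The 5 thyroid markers summed to 56.1 to 76.7 CPM, the largest part of it Pax8, which the uterus also expresses, and the thyroid factor Nkx2-1 was at 0 reads in all 12 libraries. Of the 3 thyroid markers tested, Tg, the thyroglobulin gene, rose under P4 by 0.99 in HSD and 0.85 in BN (edgeR adjusted p = 0.0031 and 0.0137). Over the 12 libraries 93.7% of the Tg reads lay in introns and 91.2% were unique, so few of them were exon reads. Pax8 and Tshr fell in HSD and passed the threshold in neither direction in BN.

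The promoters of Calca and Calcr, the peptide gene with the highest level of the family under P4 and a receptor gene near 0 reads, are shown as the 250 bases before the transcription start in RefSeq, build GRCr8, from chr1:178317530-178317779 and chr4:32691076-32691325, both on the minus strand. Capitals mark TGACG, the core of the cAMP response element, searched on both strands. Promoters of 6 of the 8 genes, all but Calcb and Ramp2, were matched by symbol.
Calca: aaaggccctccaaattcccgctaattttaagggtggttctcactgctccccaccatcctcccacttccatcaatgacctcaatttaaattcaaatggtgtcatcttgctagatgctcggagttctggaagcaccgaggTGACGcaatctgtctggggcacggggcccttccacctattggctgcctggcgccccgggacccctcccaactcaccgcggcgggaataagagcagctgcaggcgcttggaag
Calcr: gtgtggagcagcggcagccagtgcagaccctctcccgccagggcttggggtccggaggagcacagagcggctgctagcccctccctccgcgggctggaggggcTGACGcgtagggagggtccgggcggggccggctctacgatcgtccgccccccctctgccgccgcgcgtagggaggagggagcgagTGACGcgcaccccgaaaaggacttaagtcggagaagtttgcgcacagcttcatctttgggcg
The match in Calca began 112 bases before the start, and Calcr held 2 matches. The promoters of Calcrl, Ramp1, Ramp3 and Adm, not shown, held 0. TGACG was found in 18.2% of 33469 rat promoters of the same length. The full element TGACGTCA, which contains TGACG on both strands, was found in 1.59% of all promoters and in 0 of these 6. The sequence TGTTCT is the core of the site read by progesterone and glucocorticoid receptors. It was found in Calcrl, 222 bases before the start, and not in Calca, Calcr, Ramp1, Ramp3 or Adm. It was found in 17.5% of all promoters. E-boxes, CANNTG, were found 2 times in Calca and Ramp1, 3 times in Ramp3 and 0 times in Calcr, Calcrl and Adm. They were found in 65.5% of all promoters. A match describes letters only. No measurement of binding was used.

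Calca, on chromosome 1 (191158063 to 191162954, minus strand, Rnor_5.0, the build of all gene positions here), was close to silent under oil. It had 1.55, 11.7 and 6.32 CPM in HSD-Oil and 7.23, 14.8 and 9.67 CPM in BN-Oil, from 30 to 218 reads. It reached 3529, 2656 and 5666 CPM in HSD-P4 and 2524, 2766 and 2383 CPM in BN-P4, from 40586 to 96164 reads. Every P4 library stood above every oil library, and the 3 HSD-P4 libraries spread more widely than the 3 BN-P4 libraries. The fitted log2 difference was 9.24 ± 0.63 (± SE, as for all log2 values below) in HSD and 7.92 ± 0.60 in BN. HSD-Oil replicate 2 held the most Calca of the HSD oil libraries, and without it the HSD difference was 9.98. Over 22 alternative fits the difference ran from 8.61 to 9.98 in HSD and from 7.31 to 8.25 in BN. Within each P4 library Calca ranked between 64 and 124 of the 26312 genes by RPKM, the exon reads scaled by exon length and library depth, and within the oil libraries between 10177 and 13890. It made up 0.238 to 0.529% of all gene reads of a P4 library. All of its reads were placed uniquely.

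**Figure D1:**
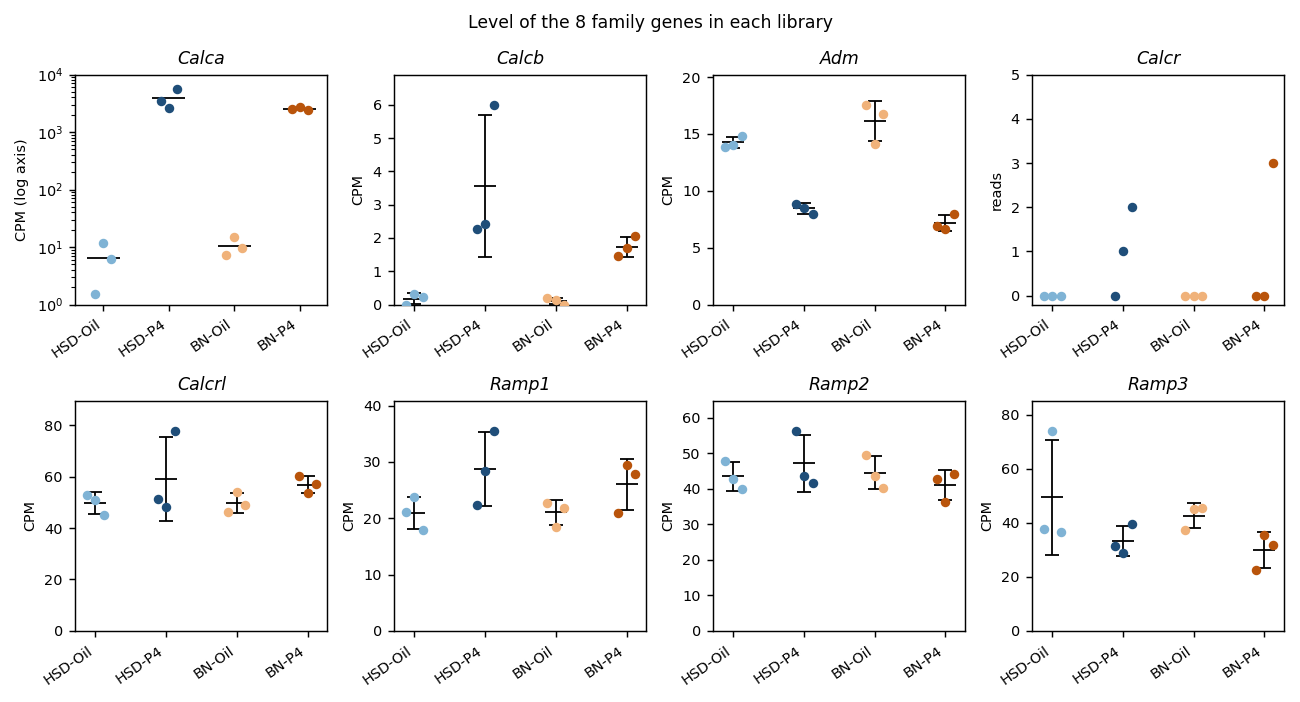
Level of each of the 8 family genes in the 12 libraries, as CPM on linear axes from 0, on a log axis for Calca and as reads for Calcr. Points are libraries, lines are group means and bars are SD (n = 3, none drawn for Calca and Calcr). Calca and Calcb stood higher in every P4 library than in any oil library of the same strain, and Adm stood lower.

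Reads of Calca were split by the deposited tables into those in exons and those in introns, on gene models of 1134 exon and 3758 intron bases with 6 exons and 2 transcripts. Introns took 66.7, 68.8 and 77.0% of the gene's reads in HSD-Oil, and 68.8, 68.1 and 71.3% in HSD-P4. They took 71.7, 71.9 and 71.2% in BN-Oil, and 74.6, 72.6 and 75.8% in BN-P4. The share was thus high with and without hormone, in polyA-selected RNA. Per kilobase, introns carried 74.6% as many reads as exons in HSD-Oil, 70.1% in HSD-P4, 76.3% in BN-Oil and 87.6% in BN-P4, from reads summed over each group. In the 6 other tested members this ratio lay between 0.336 and 10.8%. Of 10750 genes with at least 50 exon reads in each P4 library, 2.56% had a higher intron share than Calca in HSD-P4 and 1.96% in BN-P4, where the medians were 20.5 and 21.8%. The difference between P4 and oil was of like size in either class of reads: 9.29 ± 0.55 in exon reads and 9.31 ± 0.62 in intron reads in HSD, and 7.78 ± 0.52 and 7.96 ± 0.59 in BN.

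Between the strains, the mix of Calca reads under progesterone did not overlap. The intron share was 69.4 ± 1.69% in HSD-P4 and 74.3 ± 1.61% in BN-P4 (mean ± SD, n = 3). Of the exon reads, those that span an exon-exon junction made up 63.6, 65.8 and 66.1% in HSD-P4 and 49.1, 52.2 and 51.6% in BN-P4. All 3 BN-P4 libraries lay below all 3 HSD-P4 libraries. The exact two-sided permutation test gave p = 0.1 for each share, the smallest p that 3 against 3 allows. Over the 10750 genes, 14.9% had a higher intron share in BN-P4 with no overlap and 3.59% a lower junction share with no overlap. Under oil the 2 strains overlapped in both shares, on 10 to 68 exon reads a library, with junction reads at 60.0, 76.5 and 69.2% in HSD-Oil and 62.5, 66.1 and 58.8% in BN-Oil. The tables do not say which of the gene's exons held the reads, so the calcitonin and CGRP transcripts were not separated.

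**Figure D2:**
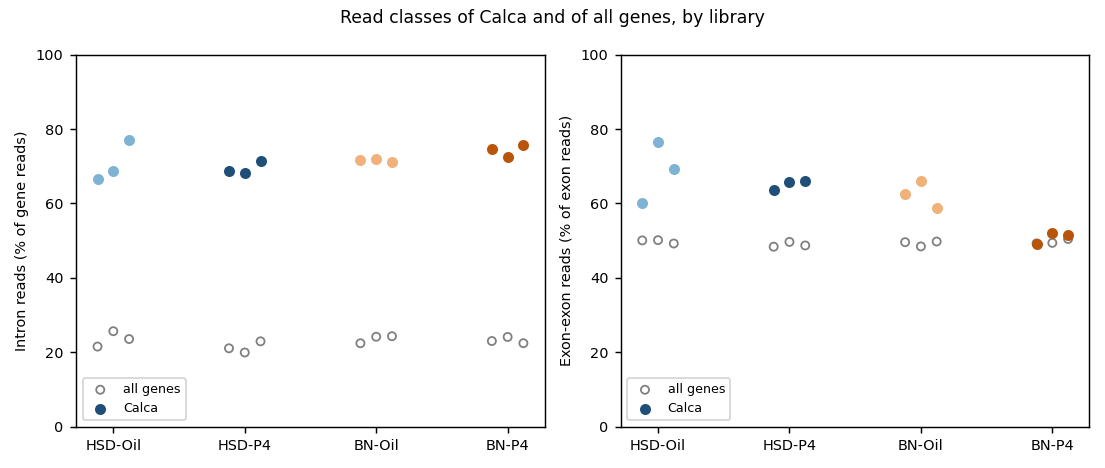
Share of gene reads in introns (left) and share of exon reads that span an exon-exon junction (right), in percent, for Calca (filled points) and over all genes (open circles) in each library. The intron share of Calca lay above 66% in all 12 libraries, against 19.96 to 25.68% over all genes, and its junction share in BN-P4 lay below that in the other groups.

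Calcb lies 83.1 kb from Calca on the same chromosome (191246065 to 191249721, plus strand) and was scarce throughout. It had 0, 6 and 4 reads in HSD-Oil and 26, 44 and 102 reads in HSD-P4, or 0, 0.322 and 0.224 CPM against 2.26, 2.42 and 6.01 CPM. In BN it had 3, 2 and 0 reads under oil and 25, 26 and 39 reads under P4, or 0.192, 0.141 and 0 CPM against 1.45, 1.71 and 2.06 CPM. Calcb was thus near the detection floor under oil and above it in all 6 P4 libraries. Reads summed over the group and scaled by depth were 20.6 times as high under P4 in HSD, from 10 against 172 reads, and 14.7 times as high in BN, from 5 against 90 reads. The P4 libraries held 1.74 to 3.33 Calcb exon reads for every 1000 Calca exon reads. Whether Calca reads were placed on Calcb was not tested. All Calcb reads were placed uniquely, and 10.5% of them lay in introns in HSD-P4 and 11.1% in BN-P4, far below the share in Calca.

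Adm, 8723 kb from Calca on chromosome 1 (182433109 to 182435280, plus strand), went the other way. It had 13.9, 14.1 and 14.8 CPM in HSD-Oil and 8.87, 8.52 and 7.95 CPM in HSD-P4. In BN it had 17.6, 14.1 and 16.7 CPM under oil and 6.89, 6.63 and 7.96 CPM under P4. All P4 libraries lay below all oil libraries in either strain, and the libraries of a group lay close together. The log2 difference was -0.76 ± 0.13 in HSD and -1.17 ± 0.13 in BN, which put the P4 mean at 0.593 and 0.443 of the oil mean. On the RPKM scale, on which genes can be compared, Adm was the most abundant of the 3 peptide genes under oil, with 9.96 ± 0.334 in HSD and 11.3 ± 1.31 in BN, against 1.71 ± 1.47 and 2.71 ± 0.990 for Calca (mean ± SD, n = 3). Under P4 Calca stood at 992 ± 317 and 580 ± 81.6 RPKM, Adm at 5.54 ± 0.262 and 4.96 ± 0.590, and Calcb at 3.95 ± 2.37 and 2.04 ± 0.340. In HSD-P4 Adm and Calcb, neighbours in that order, overlapped, and in BN-P4 they did not.

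Calcr, which encodes the calcitonin receptor (chromosome 4, 28532080 to 28607201, minus strand), was at or below the floor in every library. It had 0 reads in all 6 oil libraries, 0, 1 and 2 reads in HSD-P4, and 0, 0 and 3 reads in BN-P4. No level or fold is given for it. The receptor for the calcitonin product of Calca was thus not detectable above the floor at this depth.

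Calcrl, the receptor shared by CGRP and adrenomedullin (chromosome 3, 78271011 to 78366562, minus strand), was expressed at a like level in all groups. It had 53.0, 51.0 and 45.1 CPM in HSD-Oil and 51.4, 48.3 and 77.8 CPM in HSD-P4. In BN it had 46.1, 53.9 and 49.1 CPM under oil and 60.1, 53.7 and 57.0 CPM under P4. P4 and oil libraries overlapped in both strains, with HSD-P4 replicate 3 alone standing high. The log2 difference was 0.25 ± 0.16 in HSD, 0.01 without that library, and 0.20 ± 0.16 in BN. That library also had the lowest sum of smooth muscle markers, and the part of tissue makeup in its value was not tested.

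The 3 RAMP genes, which set the ligand that the receptor binds, showed small differences. Ramp1, the CGRP receptor partner (chromosome 9, 97995669 to 98041718, plus strand), had 21.1, 23.8 and 17.9 CPM in HSD-Oil and 22.3, 28.5 and 35.5 CPM in HSD-P4. Its levels in BN were 22.8, 18.5 and 21.9 CPM under oil and 20.9, 29.4 and 27.8 CPM under P4. The groups overlapped in both strains, with log2 differences of 0.46 ± 0.18 and 0.31 ± 0.18.

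Ramp2, a partner for adrenomedullin (chromosome 10, 88965654 to 88967459, plus strand), had 47.8, 42.8 and 39.96 CPM in HSD-Oil and 56.3, 43.7 and 41.5 CPM in HSD-P4. Its levels in BN were 49.7, 43.7 and 40.4 CPM under oil and 42.8, 36.2 and 44.3 CPM under P4. The groups overlapped in both strains, and the log2 differences were 0.11 ± 0.14 in HSD and -0.12 ± 0.14 in BN. The HSD value was -0.04 without HSD-P4 replicate 1 and -0.01 with scaling by library size alone, so it has no stable sign.

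Ramp3, the other adrenomedullin partner (chromosome 14, 80555463 to 80572980, plus strand), had 37.8, 74.0 and 36.5 CPM in HSD-Oil and 31.4, 28.8 and 39.7 CPM in HSD-P4. Its levels in BN were 37.3, 45.0 and 45.5 CPM under oil and 22.4, 35.6 and 31.9 CPM under P4. All 3 BN-P4 libraries lay below all 3 BN-Oil libraries, while the HSD libraries overlapped and HSD-Oil replicate 2 stood apart. The log2 difference was -0.57 ± 0.25 in HSD and -0.51 ± 0.26 in BN, and the HSD value was -0.16 without HSD-Oil replicate 2.

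Over the 7 tested members, libraries did not overlap between P4 and oil for 2 genes higher (Calca and Calcb) and 1 lower (Adm) in HSD, where 22.8 and 21.9% of all 15697 tested genes stood apart in that way. In BN it was 2 higher (the same genes) and 2 lower (Adm and Ramp3), beside 25.0 and 23.8% of all tested genes. The family was chosen on this contrast, and nothing is read from these counts.

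Set per length, RAMP transcripts outnumbered those of the receptor in every library. The sum of the 3 RAMP genes was 7.67 ± 0.950 times the RPKM of Calcrl in HSD-Oil, 7.09 ± 1.39 times in HSD-P4, 7.36 ± 0.830 times in BN-Oil and 6.10 ± 0.853 times in BN-P4 (mean ± SD, n = 3). Ramp2 held the largest mean share of that sum in each group, 48.4, 51.6, 50.6 and 51.3% in the same order. The share of Ramp1 was 20.3 ± 0.612% in HSD-Oil and 27.1 ± 7.59% in HSD-P4, and 20.8 ± 1.89% in BN-Oil and 26.9 ± 3.78% in BN-P4. The share of Ramp3 was 31.4 ± 8.13% in HSD-Oil and 21.3 ± 3.18% in HSD-P4, and 28.5 ± 4.46% in BN-Oil and 21.8 ± 3.98% in BN-P4. In BN the Ramp1 shares of the P4 libraries, 22.7 to 30.1%, lay above those of the oil libraries, 18.7 to 22.1%. In HSD they overlapped, at 19.1 to 34.2% under P4 and 19.9 to 21.0% under oil. Ramp3 shares in HSD did not overlap, at 19.3 to 25.0% under P4 and 25.5 to 40.6% under oil, and those in BN did.

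**Figure D3:**
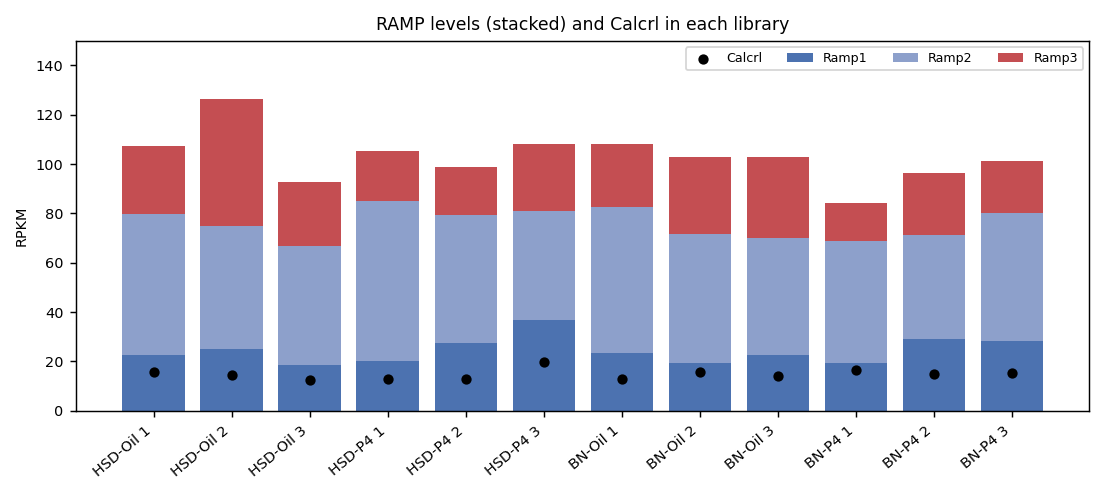
RPKM of Ramp1, Ramp2 and Ramp3, stacked, and of Calcrl (black points) in each library. The RAMP sum ranged from 84.4 to 126 RPKM and Calcrl from 12.6 to 19.6 RPKM.

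Between the strains none of the 7 tested members passed the threshold, a p below 0.05 in edgeR's quasi-likelihood test after Benjamini-Hochberg adjustment over all tested genes. Under oil 0 of 7 were called, beside 5.69% of all tested genes, 0 had an unadjusted p below 0.05, and adjusted p ran from 0.545 to 1.0. Calcb, 1 of the 7, passed the read filter through its P4 libraries. It had 10 reads in HSD-Oil and 5 in BN-Oil, summed over each group. Its oil difference, -0.57 ± 1.06, could hardly have been called on so few reads, and nothing is read from it. Calca was 0.70 ± 0.51 higher in BN-Oil on the log2 scale (edgeR adjusted p = 0.566), 0.22 without HSD-Oil replicate 1, 0.37 without BN-Oil replicate 2 and 1.43 without HSD-Oil replicate 2, and passed the threshold in none of these. Under P4 0 of 7 were called, beside 5.73% of all tested genes, and 1 had an unadjusted p below 0.05. That gene was Calcb, which was -1.04 ± 0.48 in BN-P4 against HSD-P4 (edgeR unadjusted p = 0.0494, adjusted p = 0.227), with no overlap between the libraries, as for 11.8% of all tested genes, which were lower in every BN-P4 library. It was -0.44 without HSD-P4 replicate 3 (adjusted p = 0.627), the library with the most Calcb reads. Calca was -0.63 ± 0.44 (edgeR adjusted p = 0.433), and the 95% interval of that difference, -1.64 to 0.38, does not show equal levels. It was -0.29 without HSD-P4 replicate 3.

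The strain difference of the progesterone change was tested directly as an interaction. It called 0 of 7 members, beside 0.0510% of all tested genes, and 1 had an unadjusted p below 0.05. This was Adm, whose log2 difference between P4 and oil was 0.41 ± 0.18 further below 0 in BN than in HSD (edgeR unadjusted p = 0.0428, adjusted p = 0.666). For Calca the BN difference minus the HSD difference was -1.32 ± 0.67 (edgeR adjusted p = 0.734, 95% interval -2.87 to 0.22). Leaving out 1 library gave -2.06 to -0.85, the ends without HSD-Oil replicate 2 and without HSD-Oil replicate 1, and no call. For Calcb the same difference, -0.47 ± 1.32, rested on its few reads under oil. DESeq2 and the exon reads also called 0 members in each of the 3 strain comparisons.

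The strain comparison of Calca under P4 moved with the class of reads counted, an alternative chosen after seeing the data. The log2 difference of BN-P4 from HSD-P4 was -0.62 ± 0.43 in intron reads (edgeR adjusted p = 0.547), -0.84 ± 0.37 in exon reads (adjusted p = 0.235) and -1.22 ± 0.39 in junction reads (unadjusted p = 0.00852, adjusted p = 0.145). None passed the threshold. HSD and BN differ in sequence, the reads were placed on 1 genome, and the part of that in the junction reads was not tested.

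**Figure D4:**
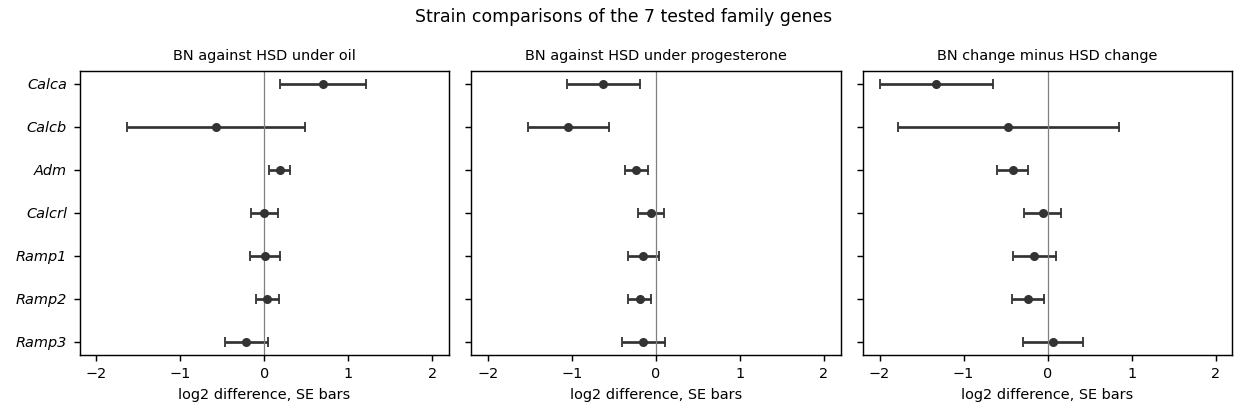
Fitted log2 differences of the 7 tested members between strains under oil (left), under progesterone (middle) and as the BN change minus the HSD change (right). Points are estimates and bars are SE. No gene passed an adjusted p of 0.05 in any of the 3 comparisons.

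The 5 tested genes whose pattern over the 12 libraries was most like that of Calca were Orm1, Spns3, Slc5a5, Lefty1 and Pla2g3, by the root mean square difference of centred log2(CPM + 1) values. That difference was 0.72 for Orm1, 0.78 for Spns3, 1.20 for Slc5a5, 1.85 for Lefty1 and 1.96 for Pla2g3. Spns3, a member of the spinster transporter family, was the nearest to Calca in its level in BN-P4, with 1007 ± 125 CPM, and 90.2% of its reads lay in introns. Lefty1, an inhibitor of Nodal signalling, had 142 ± 61.5 CPM in HSD-P4 and 70.7 ± 38.2 CPM in BN-P4. With log2(CPM + 0.1) values 4 of the 5 genes were the same.

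Of the 4 nearest genes on either side of Calca, 1 is Calcb and 2 (MP68_2 and ENSRNOG00000031044) had too few reads to test. Nucb2, which encodes the precursor of nesfatin-1 and lies 916 kb away, rose in HSD from 50.6, 51.7 and 54.7 CPM to 265, 145 and 252 CPM, by 2.07 ± 0.19 on the log2 scale (edgeR adjusted p = 5.26e-06). It rose in BN from 55.7, 68.8 and 55.5 CPM to 158, 163 and 143 CPM, by 1.37 ± 0.19 (edgeR adjusted p = 0.00024, and 0.160 in intron reads). Insc, which orients the mitotic spindle, lies 110 kb away and rose in HSD by 1.03 ± 0.30 (edgeR adjusted p = 0.0147), but did not pass the threshold without HSD-Oil replicate 1 (0.0604), without HSD-P4 replicate 2 (0.0554) or in BN (0.636). Pde3b, a cyclic nucleotide phosphodiesterase, Cyp2r1, a vitamin D 25-hydroxylase, and ENSRNOG00000020477 passed the threshold in neither strain. So 2 of the 5 tested neighbours outside the family rose in HSD, where 20.3% of all tested genes did, and 1 rose in BN, where 14.0% did.

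Other genes of the pathway were counted over 6 lists of 64 genes, of which 62 were tested against oil. In HSD 12 rose and 10 fell, 19.4 and 16.1% of the lists, beside 20.3 and 18.7% of all tested genes. In BN 8 rose and 4 fell, 12.9 and 6.45% of the lists, beside 14.0 and 11.8% of all tested genes. The median log2 change of the list genes was 0.05 in HSD and -0.04 in BN, and that of all tested genes was -0.02 and -0.01. The shares called were thus near or below those of all genes. Scaling by library size alone lowered the median of all genes in HSD to -0.14 and gave 8 higher and 14 lower there, and 6 and 6 in BN.

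Among 9 tested ligand and peptide processing genes, 2 rose and 1 fell in HSD, and 2 rose and 0 fell in BN. Adm2 encodes intermedin, or adrenomedullin 2, a further ligand of the Calcrl receptors. It had 1.34, 0.537 and 0.615 CPM in HSD-Oil and 6.35, 10.9 and 6.19 CPM in HSD-P4. Its levels in BN were 0.384, 0.492 and 0.410 CPM under oil and 4.58, 8.40 and 9.80 CPM under P4. The groups did not overlap, and Adm2 rose by 3.22 ± 0.39 in HSD (edgeR adjusted p = 4.81e-05) and 4.13 ± 0.45 in BN (adjusted p = 4.86e-05), though not in intron reads alone (0.0599 and 0.169). Introns held 2.51% of the Adm2 reads over all libraries, so that class had few reads to test. Adm2 thus went up where Adm was lower. Pcsk5, a proprotein convertase, rose by 0.70 ± 0.11 in HSD (edgeR adjusted p = 0.000347) and by 0.51 in BN (adjusted p = 0.00496), calls that limma on log2 RPKM did not keep. Pcsk1, another convertase, fell by 1.07 ± 0.28 in HSD (edgeR adjusted p = 0.0097). Over all libraries 58.1% of its reads were unique, so its level is uncertain. Iapp, which encodes amylin, had too few reads to test, with 4, 7 and 4 reads in HSD-Oil, 6, 10 and 26 in HSD-P4, 0 in all BN-Oil libraries and 3, 1 and 1 in BN-P4.

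Of 5 genes for peptide breakdown or decoy binding, 2 rose and 1 fell in HSD, and 2 rose and 0 fell in BN. Mme, or neprilysin, a peptidase that cleaves CGRP and adrenomedullin, rose by 1.20 ± 0.26 in HSD (edgeR adjusted p = 0.00314) and 0.98 ± 0.26 in BN (adjusted p = 0.0150). The BN call did not hold without BN-Oil replicate 1, BN-Oil replicate 3 or BN-P4 replicate 2 (adjusted p = 0.0556, 0.0614 and 0.0689). Ide, the insulin-degrading enzyme, rose by 0.58 ± 0.11 in HSD and 0.44 in BN (edgeR adjusted p = 0.00157 and 0.0135), the latter not without BN-P4 replicate 1 (0.0608). Ece1, the endothelin-converting enzyme, fell by 1.18 ± 0.27 in HSD (edgeR adjusted p = 0.00446) and was -0.75 in BN (adjusted p = 0.0582).

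Of 14 receptor coupling genes, 0 rose and 4 fell in HSD, and 0 rose and 1 fell in BN. Arrb1 and Arrb2, the beta-arrestins that uncouple and internalise receptors, each fell by 0.73 in HSD (edgeR adjusted p = 0.00159 and 0.000599). In BN Arrb2 fell by 0.42 (edgeR adjusted p = 0.0259), which was lost on leaving out any of BN-Oil replicates 1, 2 and 3 or BN-P4 replicate 2, and Arrb1 was -0.40 (adjusted p = 0.0560). Adcy6, an adenylyl cyclase, fell by 0.72 ± 0.19 in HSD (edgeR adjusted p = 0.0108) and was -0.21 in BN (adjusted p = 0.462). Over all libraries 41.4% of its reads were placed uniquely. Crcp, a component that couples the CGRP receptor to its G protein, was 0.33 in HSD and 0.09 in BN (edgeR adjusted p = 0.0577 and 0.654).

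Of 16 cAMP effectors, 2 rose and 2 fell in HSD, and 1 rose and 0 fell in BN. Prkar2b, a regulatory subunit of protein kinase A, rose by 0.71 ± 0.12 in HSD and 0.41 in BN (edgeR adjusted p = 0.000495 and 0.0212), the latter not without BN-Oil replicate 1 or BN-P4 replicate 1. Prkar1b, another such subunit, fell by 0.99 ± 0.21 in HSD (edgeR adjusted p = 0.00292) and was -0.47 in BN (adjusted p = 0.136). Among 9 vascular effectors, 2 rose and 2 fell in HSD and 1 rose and 3 fell in BN. Vegfa, the vascular growth factor, rose by 0.65 ± 0.19 in HSD (edgeR adjusted p = 0.0153) and 0.58 ± 0.19 in BN (adjusted p = 0.0378). Leaving out HSD-Oil replicate 1 or 3 or HSD-P4 replicate 1 ended the HSD call, and leaving out any BN library ended the BN call. The BN call also did not hold in exon or exon-exon reads, with library size alone, with upper-quartile scaling or in limma on log2 RPKM, and held in 10 of 22 alternatives.

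Of 9 factors known to act on Calca splicing or of the same families, 4 rose and 0 fell in HSD, and 2 rose and 0 fell in BN. Srsf3, which promotes inclusion of the calcitonin exon, rose by 0.74 ± 0.12 in HSD and 0.49 ± 0.12 in BN (edgeR adjusted p = 0.000489 and 0.0113), the latter not without BN-P4 replicate 2. With library size alone the HSD count of this list was 2. By edgeR and by DESeq2, 0 of the 62 list genes were called for a strain difference of the progesterone change, and 2 had an unadjusted p below 0.05 in edgeR. Between the strains 4 list genes were called under oil and 4 under P4, 6.45% of the lists each time, all higher in BN. Under oil they were Gucy1a1 (log2 difference 0.80), Gucy1b1 (0.77), Pcsk5 (0.62) and Kcnj8 (0.56). Under P4 they were Scg5 (1.53), Gucy1a1 (0.75), Pde3a (0.75) and Pcsk5 (0.42). Of all tested genes, 5.69% were called under oil and 5.73% under P4, so these shares are near those of all genes. Summed nerve and Schwann cell markers, of interest because sensory nerves carry CGRP, were at 42.6 to 60.6 CPM in HSD and 66.3 to 98.0 CPM in BN. Of these 7 markers 1 was called between the strains: Uchl1, a ubiquitin hydrolase of neurons, with 7.89 CPM in HSD-Oil against 37.4 CPM in BN-Oil and 5.63 against 26.7 CPM under P4 (edgeR adjusted p = 2.96e-05 and 3.10e-05). Against oil 1 of the 7 was called, Tubb3, a neuronal tubulin, which rose by 1.26 in HSD and 0.95 in BN (edgeR adjusted p = 0.00448 and 0.0387), while the summed markers overlapped between P4 and oil in HSD and lay lower under P4 in BN. Of all tested genes, 39.1% were called against oil in HSD and 25.8% in BN. The part of nerve in the values of Calca and Calcb was not tested. Neuroendocrine markers, 5 genes, summed to 0.609 to 1.41 CPM, with P4 libraries below oil libraries in both strains.

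**Figure D5:**
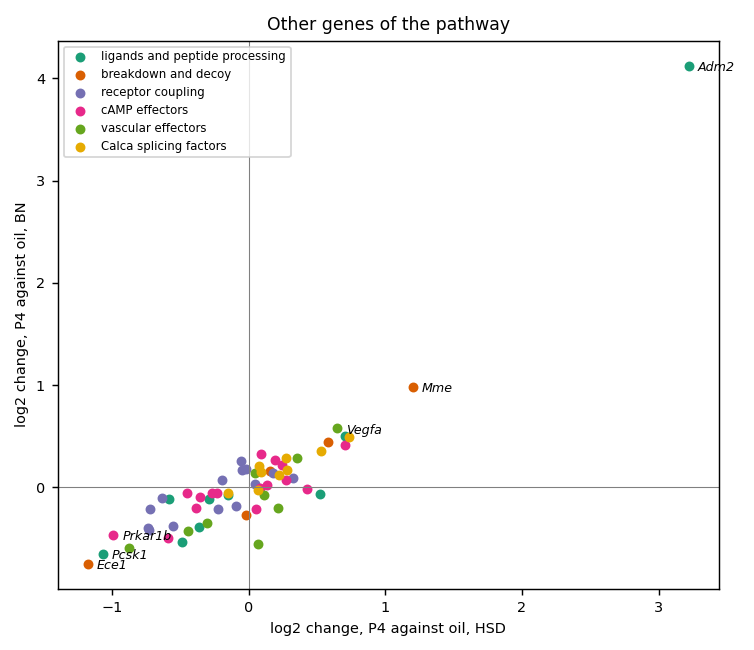
Log2 change from oil to progesterone of the 62 tested pathway genes in HSD (horizontal) and BN (vertical), coloured by list, with 6 genes named. Adm2 stands alone at the upper right, at 3.22 in HSD and 4.13 in BN, and the other genes lie between -1.18 and 1.20 in HSD.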

How the data were processed

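Per the labels, RNA from rat uterus was extracted with Trizol and made into polyA-selected TruSeq libraries. Per the submitters' processing notes, the genome build was Rnor_5.0. Which aligner and counter were used, and whether strand was, is not given in the sources used here. The authors deposited, for each library, read counts per gene (total and unique reads in genes, exons, exon-exon junctions and introns) and RPKM, which per the file headers is set by exon reads and exon length and was recomputed exactly for the 8 members. Overlapping and antisense genes cannot be separated.

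Total gene reads were tested with edgeR 4.0.16 in R 4.3.3: filterByExpr (minimum count 10, minimum total 15) kept 15697 genes, followed by TMM scaling, 1 robust quasi-likelihood fit of the 4 groups with 8 residual degrees of freedom (common biological coefficient of variation 0.157), and Benjamini-Hochberg adjustment at 0.05. Genes past it are said to have risen or fallen. The SE of a log2 value is approximate: its size divided by the square root of the F statistic. The 95% intervals were built from that SE and t quantiles with 8 degrees of freedom. They can include 0 where the unadjusted p is below 0.05. CPM are TMM-scaled. Alternatives were other read classes, DESeq2 1.42.0, other scalings, no filter, limma 3.58.1 on log2(RPKM + 0.1) and log2(RPKM + 1), and leaving out each library. The fits were tested on simulated data.

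The members and the lists were chosen with earlier results of these data known. Genes named are the 8 members, the 5 most like Calca, its 4 nearest genes on each side, and list genes. Those are list genes called against oil with an absolute log2 change of at least 0.58 (at most 4 per list and direction). Pathway list genes called between the strains are also named, with Iapp and Crcp as background.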

Additional observations from a re-analysis of the deposited data

How the results depend on the processing

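No member was called in any of the 3 strain comparisons under any of the 22 alternatives to each, though values near 0 changed sign under some of them. So did Calcb, which was -0.57 in BN against HSD under oil, with a range of -1.63 to 0.30. Its strain difference of the progesterone change was -0.47, with a range of -1.36 to 0.47. Neither has a stable sign. The number of pathway list genes called against oil, 22 in HSD and 12 in BN, was more open to the processing. With intron reads it was 11 in HSD and 5 in BN, with exon-exon reads 7 in BN, and with limma on log2(RPKM + 0.1) 7 in BN. DESeq2 gave 13 higher and 13 lower in HSD and 9 and 7 in BN, and upper-quartile scaling 10 and 14 in HSD and 6 and 7 in BN. Leaving out 1 library at a time gave 15 to 27 in HSD and 6 to 18 in BN. In BN it was 6 without BN-Oil replicate 1 or 3, 7 without BN-Oil replicate 2 or BN-P4 replicate 2, and 18 without HSD-P4 replicate 2 or 3, the cause of which was not tested. Calcb, on few reads, was 1.93 in HSD and 1.44 in BN with limma on log2(RPKM + 1). Its HSD value was 3.66 without HSD-P4 replicate 3, 3.68 without HSD-Oil replicate 1 and 4.96 without HSD-Oil replicate 2, and its BN value 4.40 without BN-Oil replicate 1. Intron reads alone ended the HSD calls of Adm2, Pcsk1, Arrb1, Prkar2b and Srsf3 and the BN calls of Adm2, Mme, Ide, Arrb2, Prkar2b, Srsf3 and Nucb2. Either limma fit ended the calls of Pcsk5 in both strains, Ide in BN and Insc in HSD, and limma on log2(RPKM + 0.1), exon reads and exon-exon reads each ended that of Arrb2 in BN. Exon-exon reads also ended that of Prkar2b in BN. Calcr had at most 3 reads a library and Calcb at most 6 under oil, so depth limits both. No paired analysis was possible because the labels give no replicate number shared between groups.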
